A study of Mus musculus with 12 samples.

Results

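The genes described here are 41 genes of fibroblast collagens and matrix assembly, chosen by a list of symbols whose rule uses no measured value. They are 41 of 37991 gene identifiers counted in each library, and each symbol matched exactly 1 identifier. All 41 passed the filter on low counts, as did 15098 genes in all. The list holds 7 fibrillar collagen chains, 5 basement membrane collagens, 5 network collagens and 3 collagens that sit on the surface of fibrils (FACIT collagens). It also holds 8 elastic fibre genes, 6 adhesive and matricellular glycoproteins, and 7 genes of enzymes and a chaperone that modify collagen.

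RNA was counted in 12 libraries of primary mouse embryonic fibroblasts (MEFs), connective tissue cells grown from embryos. Male E15.5 embryos of the C57BL/6N strain, from crosses of Ing1 and Gadd45a mutant mice, gave the cells. They were harvested at passage 4 and 80% confluency. There were 4 groups of 3 libraries, all undifferentiated: wild type (WT), Ing1-/- (Ing1 KO), Gadd45a-/- (Gadd45a KO) and Gadd45a-/-;Ing1-/- (double knockout, DKO). Ing1 encodes a chromatin reader of an active histone mark, and Gadd45a a stress-induced protein linked to DNA repair and DNA demethylation. Both deletions were carried in the germ line. No label ties a library to an embryo, so p-values measure the spread between libraries, which may be technical.

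Fibroblasts build most of the connective tissue matrix. Fibrillar collagen chains are wound into triple helices in the endoplasmic reticulum with the help of prolyl and lysyl hydroxylases and a dedicated chaperone, are secreted, and are then cross-linked by lysyl oxidases. Fibronectin and the type V chains help to seed fibrils, type XII and XIV collagens decorate them, and type IV collagen forms the sheet of basement membranes. Elastic fibres are made of an elastin core on a scaffold of fibrillin microfibrils, with fibulins and latent TGF-beta binding proteins attached. Matricellular proteins such as periostin and tenascin-C sit in the matrix and change how cells attach to it.

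The stretches just before the starts of a few of the genes whose levels changed are shown first, as their promoter context. Each is the 100 bases before a RefSeq start on the gene's own strand, build GRCm38.p6, and capitals mark a motif. Stretches that overlapped an annotated exon were left out. Of several remaining starts of a gene, only those whose stretch held a searched motif were kept. The motifs shown are the TATA box letters TATAAA, the CCAAT box on either strand, and the E-box letters CACGTG. Postn and Fbln1 fell, and Tnc and Ltbp1 rose, in Ing1 KO.
Postn (chr3:54361007-54361106, plus strand): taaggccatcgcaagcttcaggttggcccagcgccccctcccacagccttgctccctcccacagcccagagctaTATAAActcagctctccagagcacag
Fbln1 (chr15:85205849-85205948, plus strand): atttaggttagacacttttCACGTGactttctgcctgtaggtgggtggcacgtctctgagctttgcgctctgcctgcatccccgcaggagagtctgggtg
Ltbp1 (chr17:75005429-75005528, plus strand): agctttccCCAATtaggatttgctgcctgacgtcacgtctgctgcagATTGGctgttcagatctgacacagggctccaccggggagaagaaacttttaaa
Tnc (chr4:64047016-64047115, minus strand): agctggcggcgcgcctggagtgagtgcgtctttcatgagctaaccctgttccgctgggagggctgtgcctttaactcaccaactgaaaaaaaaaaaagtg
Postn, the periostin gene, had the letters TATAAA close to this start, Fbln1 had CACGTG, and Ltbp1 had CCAAT on both strands. Around another RefSeq start of Postn, CCAAT was found and TATAAA was not. The 100 bases shown for Tnc held none of these motifs. Further from this Tnc start, outside the printed bases, TATAAA lay at -126 and GGGCGG at -167. Windows from 250 bases before to 50 after a start were at hand for 28 of the 41 genes. The 27025 genes with a window set beside these 28 were not limited to genes that passed the filter on low counts, unlike the 28. Among the 28, GGGCGG on either strand occurred in 71.4% against 38.2% of the 27025 genes, and the median GC content was 60.3% against 52.7%. TATAAA occurred in 17.9% against 15.7%, CCAAT in 42.9% against 41.1%, TGANTCA in 3.57% against 8.97%, and CACGTG in 3.57% against 8.09%, all searched on both strands. None of these motifs contains another, TGANTCA and CACGTG read the same on both strands, and a match describes these letters only. The starts of Col4a1 and Col4a2 face away from each other on chromosome 8 and their first exons share 22 bases.

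Depth ran from 31493168 to 42852059 gene counts per library, of which the 41 genes held 13.35% to 15.36%. As the check of the labels, Ing1 stood at 0.916 to 1.42 CPM (counts scaled to library size with TMM factors) in the 6 libraries labelled as lacking it and at 49.7 to 54.5 CPM in the other 6. Gadd45a went against its label: it stood at 75.9 to 132 CPM in the 6 libraries labelled as lacking it and at 16.7 to 21.3 CPM in the others. Exons of Gadd45a share 337 bases with those of E230016M11Rik on the opposite strand, and the part of reads there was not tested. Which part of Gadd45a was deleted is not stated in the labels. These groups are therefore called labelled Gadd45a KO and labelled DKO throughout, and directions drawn from them depend on the label. All 10 fibroblast markers were detected in every library, and their sum was 6109 to 6324 CPM in the WT and 6462 to 6655 CPM in Ing1 KO. It was 6220 to 6566 CPM in the labelled Gadd45a KO and 5658 to 6229 CPM in the labelled DKO. Single fibroblast markers moved apart from this sum: in Ing1 KO against the WT, Lum (2.67-fold), Pdgfra (1.74-fold), Dpt (1.64-fold) and Twist1 (1.47-fold) were called lower and Vim and Thy1 higher. In the labelled DKO 3 of the 10 were called lower against each other group, and 1 was called higher against Ing1 KO. None was called in the labelled Gadd45a KO against the WT. Their part in the results was not tested. Markers of macrophages moved with the labelled DKO: their sum was 1332 to 1659 CPM there, against 171.8 to 293.6 CPM in the WT, 219.9 to 409.5 CPM in Ing1 KO libraries and 95.46 to 360.9 CPM in the labelled Gadd45a KO. All 13 of these markers were called higher in the labelled DKO than in each other group, none was at 0 in any library, and their part in the results below was not tested. Cartilage markers summed to 89.79, 84.98 and 39.41 CPM in Ing1 KO replicates 1, 2 and 3 against 27.52 to 36.48 CPM in the WT. Smooth muscle markers summed to 8371 to 10200 CPM in Ing1 KO and 8339 to 9731 CPM in the labelled DKO against 6809 to 7487 CPM in the WT. Their part was not tested either. In bulk RNA, fewer cells of a type and less RNA per cell cannot be told apart.

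Levels of different genes were compared per kb of transcript, in CPM per kb. In the WT, Sparc, which encodes a collagen-binding glycoprotein, stood highest at 6456 ± 156 CPM per kb (SD, n = 3), followed by Postn at 4042 ± 255, Col1a2 at 3611 ± 188 and Col1a1 at 3287 ± 222 CPM per kb. The libraries of Col1a1 and Col1a2, the chains of type I collagen, overlapped on this scale. Thbs1 stood at 2305 ± 136 CPM per kb and Col3a1 at 2208 ± 62.0 CPM per kb, and these 2 neighbours also lay within their spread. The lowest were Col15a1 at 11.7 ± 1.68, Col14a1 at 12.9 ± 1.25, Col5a3 at 23.5 ± 4.11 and Col18a1 at 28.2 ± 5.17 CPM per kb.

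**Figure D1:**
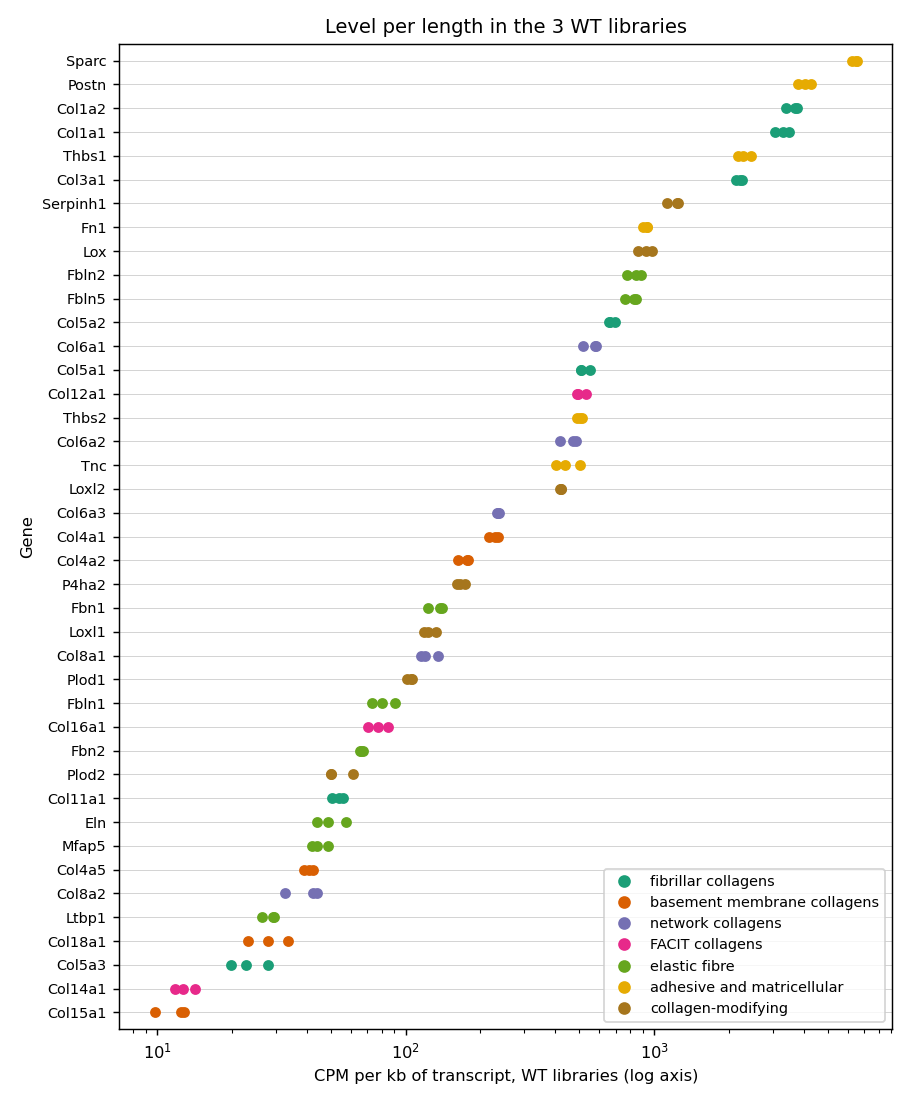
Level of each of the 41 genes in the 3 WT libraries, in CPM per kb of transcript on a log axis; points are libraries and colours are classes. Sparc lies highest and Col15a1 lowest, and the points of 1 gene lie close together compared with the distance between genes.

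In Ing1 KO, Ltbp1, Col5a3 and the genes of 3 basement membrane collagens, fibronectin, tenascin-C and the lysyl oxidase-like enzymes Loxl1 and Loxl2 rose. Col8a2, Col12a1 and the genes of fibulin-1 and periostin fell. Col3a1, Col15a1 and Thbs2 fell too, but these 3 calls were each lost when any of several single libraries was left out. So was the rise of Col5a3, and that of Col4a1 was lost without Ing1 KO replicate 2. Against the WT, 9 of the 41 genes rose and 7 fell, which is 39% of them beside 23.5% of all 15098 genes tested in that comparison (12.1% higher and 11.4% lower). A gene is called, and said to have risen or fallen, where the Benjamini-Hochberg adjusted p over all genes of edgeR's quasi-likelihood test was under 0.05. The median log2 fold change of the 41 genes was -0.03, and that of all genes tested was -0.0026. The 3 Ing1 KO libraries all lay above the WT for 11 of the 41 genes and all below it for 10, beside 37.2% of all genes in either direction. The count of 7 that fell was 11 without Ing1 KO replicate 1. It was 4 without Ing1 KO replicate 2 or 3, or without WT replicate 1.

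In the libraries labelled Gadd45a KO, none of the 41 genes was called against the WT in either direction, beside 0.00662% of all genes, which is Gadd45a itself. At an unadjusted p under 0.05 by edgeR there were 3 of the 41, beside 1331 of all 15098 genes tested. DESeq2 called none of the 41. The libraries of both groups did not overlap for 4 of the 41, 3 higher and 1 lower, beside 14.7% of all genes. Their log2 fold changes ran from -0.29 (Mfap5) to 0.37 (Eln), with 95% intervals of -1.12 to 0.54 and -0.91 to 1.64. For Fn1 the interval was -0.09 to 0.24, and for Col1a1 it was 0.01 to 0.35, above 0 before adjustment over all genes. Same-numbered libraries of these groups all correlated above 0.1, and a fit of both groups alone with the number as a block, chosen after seeing the data, called 13 genes and none of the 41.

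In the labelled DKO, 4 of the 41 genes rose and 4 fell against the WT, which is 19.5% of them beside 25.9% of all genes (15.6% higher and 10.3% lower). The labelled DKO libraries all lay above the WT for 6 genes and all below it for 11, beside 41.3% of all genes in either direction. Macrophage markers were called higher in these libraries too, at the summed levels given above, and their part was not tested. With RLE in place of TMM scaling the split was 4 higher and 7 lower. The count of 4 that fell was 1 without labelled DKO replicate 2 and 2 without WT replicate 1, 2 or 3. Against Ing1 KO, 3 rose and 7 fell in the labelled DKO, 24.4% beside 24.8% of all genes (14.9% higher and 9.88% lower). The groups did not overlap for 4 genes higher and 8 lower, beside 39.1% of all genes. That count of 3 was 7 without Ing1 KO replicate 1 and 5 without labelled DKO replicate 3, and the count of 7 was 4 without labelled DKO replicate 2. Against the labelled Gadd45a KO, 3 rose and 4 fell in the labelled DKO, 17.1% beside 26.4% of all genes (15.8% higher and 10.6% lower). The groups did not overlap for 3 genes higher and 12 lower, beside 45.7% of all genes. The 4 that fell were 2 without labelled DKO replicate 2 or labelled Gadd45a KO replicate 1.

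The interaction asks whether the labelled DKO differs from the sum of both single knockouts on the log2 scale. It is the log2 fold change of the labelled DKO against the WT, less those of Ing1 KO and of the labelled Gadd45a KO. It was called for 9 of the 41 genes, 3 above 0 and 6 below, which is 22% of them beside 17.8% of all genes (10.4% above and 7.4% below 0). The 3 were 5 without labelled DKO replicate 3 or Ing1 KO replicate 1 and 1 without WT replicate 2, and the 6 were 3 without labelled DKO replicate 2 or Ing1 KO replicate 2. The 6 comparisons share libraries, so the values of a gene in them are given side by side and are not independent.

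**Figure D2:**
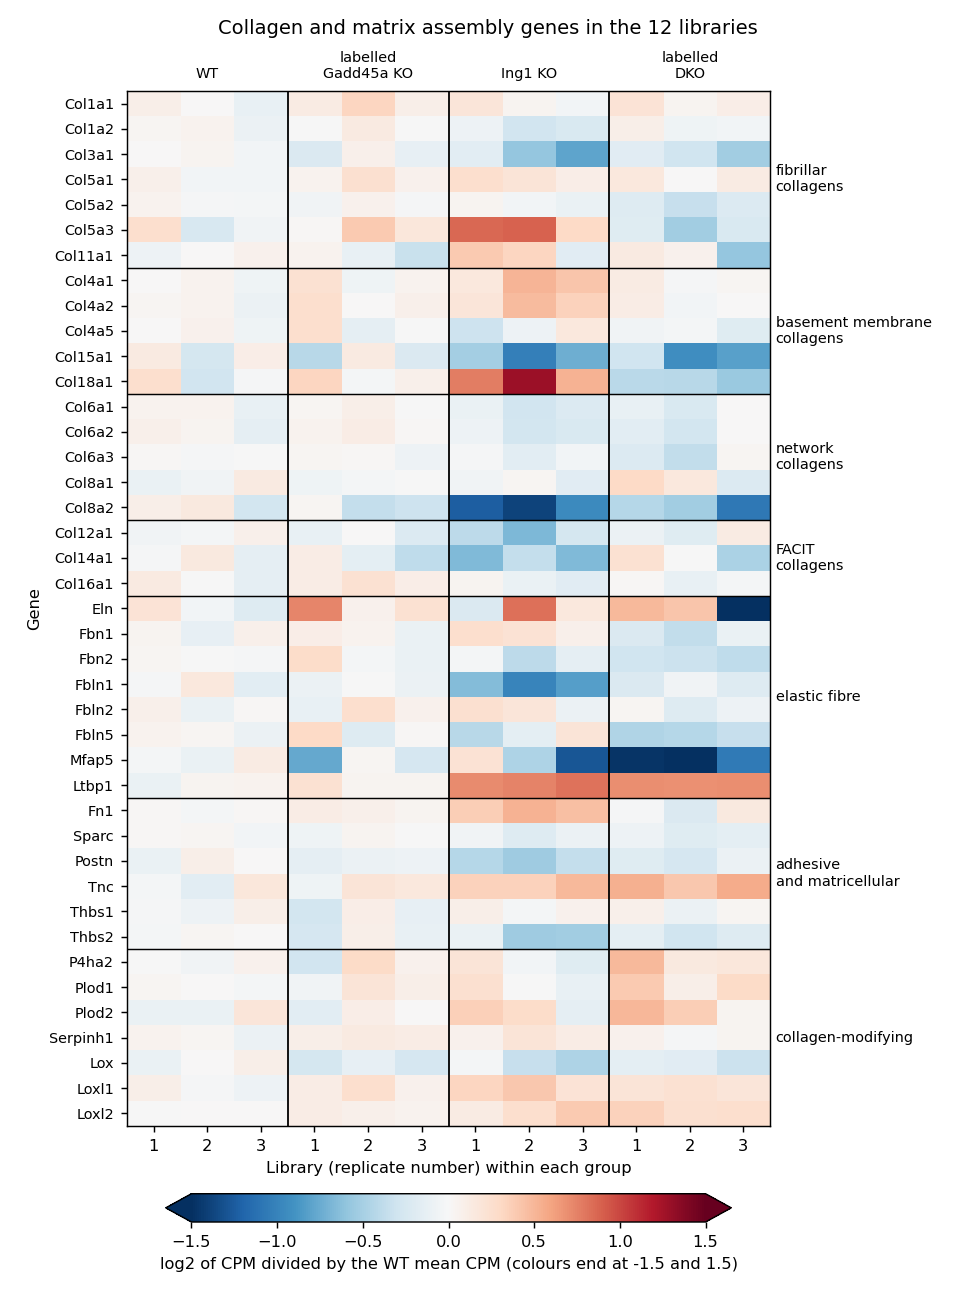
Heat map of the 41 genes (rows, by class) in the 12 libraries (columns, by group); colour is the log2 of CPM divided by the WT mean CPM, and ends at -1.5 and 1.5. Ltbp1 is high in all 6 libraries labelled as lacking Ing1, and Fbln1 and Postn are low in the 3 Ing1 KO libraries.

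**Figure D3:**
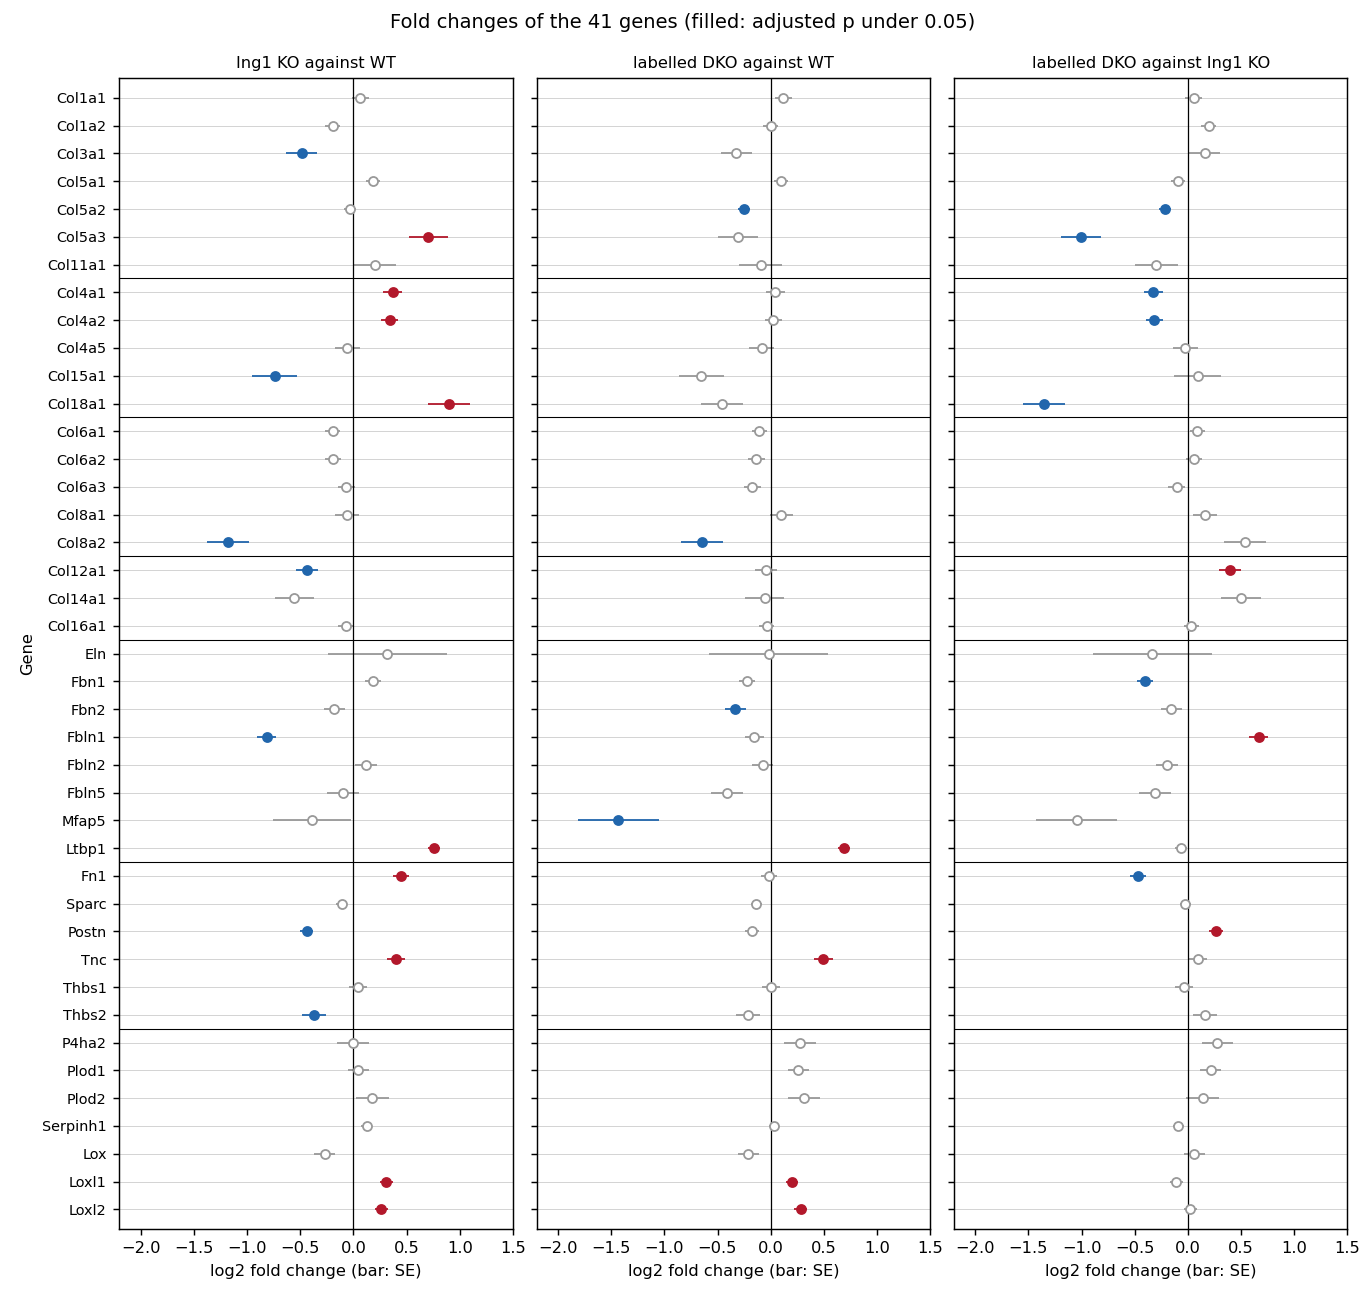
Log2 fold change with its SE for each of the 41 genes in Ing1 KO against WT, the labelled DKO against WT and the labelled DKO against Ing1 KO; filled points have an adjusted p under 0.05, red higher and blue lower. There are 16 filled points in the first panel, 8 in the second and 10 in the third.

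Of the 7 fibrillar collagens, Col5a3 rose and Col3a1 fell in Ing1 KO, Col5a2 fell in the labelled DKO, and the other 4 were not called against the WT. Col5a3, which encodes a minor chain of the type V fibrils that help set fibril width, stood at 171, 122 and 139 CPM in the WT libraries, and at 261, 267 and 177 CPM in those of Ing1 KO. For Col5a3, the labelled Gadd45a KO libraries had 146, 188 and 162 CPM, and the labelled DKO had 127, 100.3 and 123 CPM. All Ing1 KO libraries lay above all WT libraries, replicate 3 only just, and the labelled DKO libraries lay below those of Ing1 KO. Col5a3 rose 1.63-fold in Ing1 KO against the WT (log2 fold change 0.71, SE 0.19, adjusted p = 0.0243 by edgeR). It was 2.01-fold lower in the labelled DKO than in Ing1 KO (log2 fold change -1.01, SE 0.19, adjusted p = 0.00494 by edgeR), and the interaction was called (difference of log2 fold changes -1.21, SE 0.26, adjusted p = 0.017 by edgeR). The rise in Ing1 KO was not called without WT replicate 2 or 3 or Ing1 KO replicate 1 or 2 (log2 fold change 0.60 to 0.87 with 1 library left out), nor in a fit of the compared groups alone (adjusted p = 0.0762 by edgeR).

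Col5a2, the chain that pairs with Col5a1 in most type V collagen, stood at 4606, 4383 and 4364 CPM in the WT libraries, and at 4589, 4311 and 4142 CPM in those of Ing1 KO. For Col5a2, the labelled Gadd45a KO libraries had 4291, 4651 and 4414 CPM, and the labelled DKO had 3894, 3492 and 3856 CPM. The labelled DKO libraries lay below every library of the other groups. Col5a2 fell in the labelled DKO against the WT (log2 fold change -0.25, SE 0.06, adjusted p = 0.00628 by edgeR) and against the labelled Gadd45a KO (log2 fold change -0.25, SE 0.06, adjusted p = 0.00641 by edgeR). The fall against Ing1 KO (log2 fold change -0.21, SE 0.06, adjusted p = 0.0155 by edgeR) was not called without Ing1 KO replicate 1 or labelled DKO replicate 2 (log2 fold change -0.25 to -0.17 with 1 library left out). Its partner Col5a1 stood at 4644, 4278 and 4284 CPM in the WT libraries, and at 5240.5, 5049.8 and 4736 CPM in those of Ing1 KO. For Col5a1, the labelled Gadd45a KO libraries had 4582, 5204 and 4595 CPM, and the labelled DKO had 4922, 4404 and 4781 CPM. The Ing1 KO libraries lay above those of the WT without reaching the threshold (log2 fold change 0.19, SE 0.07, adjusted p = 0.055 by edgeR), and in the other comparisons Col5a1 was not called. Exons of Col5a1 overlap those of 2810430I11Rik and Gm13372 on the opposite strand by 99 and 113 bases.

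Col3a1, the type III chain of loose and stretchy connective tissue, stood at 12319, 12617 and 11928 CPM in the WT libraries, and at 11030.3, 8219 and 7089 CPM in those of Ing1 KO. For Col3a1, the labelled Gadd45a KO libraries had 10613, 12921 and 11327 CPM, and the labelled DKO had 10885, 9996 and 8533 CPM. All Ing1 KO libraries lay below the WT, with replicate 1 closer to the WT than replicates 2 and 3. Col3a1 fell 1.40-fold (log2 fold change -0.49, SE 0.15, adjusted p = 0.0352 by edgeR), and the call was lost without WT replicate 1, 2 or 3 or Ing1 KO replicate 2 or 3 (log2 fold change -0.68 to -0.35 with 1 library left out). It was also lost without the filter on low counts (adjusted p = 0.103 by edgeR) and with the compared groups alone (adjusted p = 0.074 by edgeR). An annotated gene on the same strand, Gm47302, shares 141 exon bases with Col3a1 and is not among the genes counted. Col1a2, a type I chain, stood at 19719.6, 20051 and 18168 CPM in the WT libraries, and at 18249.9, 15878 and 16453 CPM in those of Ing1 KO. For Col1a2, the labelled Gadd45a KO libraries had 19179.9, 21243 and 19191 CPM, and the labelled DKO had 20527, 18537 and 18840.2 CPM. Ing1 KO overlapped the WT at replicate 1 (log2 fold change -0.20, edgeR adjusted p = 0.0566). Col1a1, its partner chain, ran from 18104 to 24373 CPM and Col11a1, a minor fibrillar chain typical of cartilage, from 273.5 to 537.5 CPM over the 12 libraries, with groups that overlapped and no call in any comparison. Cartilage markers were also highest in Ing1 KO replicates 1 and 2, where Col11a1 stood highest, and their part in this was not tested.

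Of the 5 basement membrane collagens, 3 rose and 1 fell in Ing1 KO, and none was called in the labelled DKO against the WT. The 3 that rose in Ing1 KO were lower in the labelled DKO than in Ing1 KO. Col4a1 and Col4a2 encode the common chains of the type IV sheet. Col4a1 stood at 1515, 1559 and 1435 CPM in the WT libraries, and at 1677, 2143 and 2006 CPM in those of Ing1 KO. For Col4a1, the labelled Gadd45a KO libraries had 1754, 1440.0 and 1556 CPM, and the labelled DKO had 1633, 1478 and 1539 CPM. All Ing1 KO libraries lay above the WT, while the labelled DKO overlapped the WT and lay below Ing1 KO. Col4a1 rose 1.29-fold in Ing1 KO (log2 fold change 0.37, SE 0.09, adjusted p = 0.0102 by edgeR). It was lower in the labelled DKO than in Ing1 KO (log2 fold change -0.33, SE 0.09, adjusted p = 0.0179 by edgeR), and its interaction was called (difference of log2 fold changes -0.40, SE 0.12, adjusted p = 0.0441 by edgeR). The rise was not called without Ing1 KO replicate 2 (log2 fold change 0.29 to 0.47 with 1 library left out). The difference between the labelled DKO and Ing1 KO was not called without Ing1 KO replicate 2 or 3 or labelled DKO replicate 2 or 3 (log2 fold change -0.42 to -0.25 with 1 library left out), and the interaction was not called in 10 of the 12 fits that left out 1 library (-0.50 to -0.32). The fits without labelled Gadd45a KO replicate 2 or Ing1 KO replicate 1 kept it. Without the filter on low counts its adjusted p was 0.0721 by edgeR.

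Col4a2 stood at 1139, 1153 and 1043 CPM in the WT libraries, and at 1265, 1539 and 1417 CPM in those of Ing1 KO. For Col4a2, the labelled Gadd45a KO libraries had 1322, 1114 and 1176 CPM, and the labelled DKO had 1196, 1079 and 1118 CPM. The groups came in the same order as for Col4a1. It rose 1.27-fold in Ing1 KO (log2 fold change 0.34, SE 0.08, adjusted p = 0.00774 by edgeR) and was lower in the labelled DKO than in Ing1 KO (log2 fold change -0.32, SE 0.08, adjusted p = 0.0109 by edgeR). The interaction was called (difference of log2 fold changes -0.43, SE 0.11, adjusted p = 0.0206 by edgeR). The difference from Ing1 KO was not called without Ing1 KO replicate 2 or labelled DKO replicate 2 (log2 fold change -0.39 to -0.25 with 1 library left out), and the interaction was not called without WT replicate 3, Ing1 KO replicate 2 or labelled DKO replicate 2 (difference of -0.50 to -0.36 with 1 library left out). The exons of Col4a1 and Col4a2 overlap by 22 bases on opposite strands, which leaves nearly all of both transcripts outside the overlap.

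Col18a1, whose protein core carries heparan sulfate and holds the fragment endostatin, stood at 187, 129 and 156 CPM in the WT libraries, and at 269, 384 and 227 CPM in those of Ing1 KO. For Col18a1, the labelled Gadd45a KO libraries had 197, 155 and 167 CPM, and the labelled DKO had 119, 119 and 107 CPM. It was highest in the Ing1 KO libraries, and in the labelled DKO every library lay below every library of the other groups. Col18a1 rose 1.86-fold in Ing1 KO (log2 fold change 0.90, SE 0.20, adjusted p = 0.0117 by edgeR) and was 2.56-fold lower in the labelled DKO than in Ing1 KO (log2 fold change -1.35, SE 0.20, adjusted p = 0.00182 by edgeR). Its interaction was the most negative of the 41 genes (difference of log2 fold changes -1.49, SE 0.28, adjusted p = 0.0101 by edgeR), and its difference between the labelled DKO and the WT was not called (log2 fold change -0.46, SE 0.20, adjusted p = 0.131 by edgeR). The 3 calls were kept when any 1 library was left out, and the rise in Ing1 KO was not called in a fit of the compared groups alone (adjusted p = 0.0645 by edgeR).

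Col15a1, the related multiplexin collagen, moved the other way and stood at 66.4, 50.5 and 64.5 CPM in the WT libraries, and at 42.5, 29.7 and 36.4 CPM in those of Ing1 KO. For Col15a1, the labelled Gadd45a KO libraries had 45.2, 66.6 and 51.8 CPM, and the labelled DKO had 49.3, 31.8 and 34.4 CPM. The Ing1 KO libraries lay below the WT, and the labelled DKO libraries did so too. Col15a1 fell 1.67-fold in Ing1 KO (log2 fold change -0.74, SE 0.21, adjusted p = 0.0346 by edgeR), while the value in the labelled DKO was not called (log2 fold change -0.65, SE 0.21, adjusted p = 0.0526 by edgeR). The call in Ing1 KO was lost without WT replicate 1 or 3 or Ing1 KO replicate 2 or 3 (log2 fold change -0.87 to -0.62 with 1 library left out), and without the filter on low counts (adjusted p = 0.0721 by edgeR). Col4a5, an X-linked type IV chain of specialised basement membranes, stood at 267, 278 and 254 CPM in the WT libraries, and at 215, 254 and 299 CPM in those of Ing1 KO. For Col4a5, the labelled Gadd45a KO libraries had 318, 242 and 266 CPM, and the labelled DKO had 256, 262 and 236 CPM. Its groups overlapped, and it was not called in any comparison.

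Of the 5 network collagens, Col8a2 fell in Ing1 KO and in the labelled DKO, and the type VI chains and Col8a1 were not called. Col8a2, a chain of the short-chain type VIII collagen of vessel walls and the cornea, stood at 183, 190.0 and 142 CPM in the WT libraries, and at 73.0, 65.4 and 88.8 CPM in those of Ing1 KO. For Col8a2, the labelled Gadd45a KO libraries had 175, 134 and 139 CPM, and the labelled DKO had 127, 120.0 and 81.9 CPM. Both groups labelled as lacking Ing1 lay below the WT throughout. Col8a2 fell 2.27-fold in Ing1 KO (log2 fold change -1.18, SE 0.20, adjusted p = 0.00339 by edgeR) and 1.57-fold in the labelled DKO (log2 fold change -0.65, SE 0.20, adjusted p = 0.0379 by edgeR). The call in the labelled DKO was lost without WT replicate 1 or 2 or labelled DKO replicate 2 or 3 (log2 fold change -0.77 to -0.48 with 1 library left out). Its adjusted p by edgeR was 0.0728 without the filter on low counts and 0.0877 with the compared groups alone. The partner chain Col8a1 stood at 589, 608 and 692 CPM in the WT libraries, and at 607, 644 and 562 CPM in those of Ing1 KO. For Col8a1, the labelled Gadd45a KO libraries had 600.4, 615 and 628 CPM, and the labelled DKO had 777, 704 and 546 CPM. Its groups overlapped.

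The type VI chains form beaded filaments near cells. Col6a1 stood at 2388, 2379 and 2124 CPM in the WT libraries, and at 2148, 1881 and 1989.8 CPM in those of Ing1 KO. For Col6a1, the labelled Gadd45a KO libraries had 2339, 2432 and 2283 CPM, and the labelled DKO had 2127, 1954 and 2311 CPM. Col6a2 stood at 1909.6, 1859.7 and 1644 CPM in the WT libraries, and at 1709, 1488 and 1545 CPM in those of Ing1 KO. For Col6a2, the labelled Gadd45a KO libraries had 1864, 1957 and 1833 CPM, and the labelled DKO had 1622, 1495 and 1817 CPM. Col6a3 stood at 2407, 2347 and 2376 CPM in the WT libraries, and at 2349.9, 2138 and 2315 CPM in those of Ing1 KO. For Col6a3, the labelled Gadd45a KO libraries had 2426, 2415 and 2251 CPM, and the labelled DKO had 2069, 1833 and 2417 CPM. Ing1 KO overlapped the WT for each of the 3 chains, with log2 fold changes of -0.20, -0.19 and -0.07 (edgeR adjusted p = 0.0582, 0.0899 and 0.581). None of the 3 was called in any of the 6 comparisons.

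Col12a1 was the called member among the FACIT collagens, which bind to the surface of fibrils. It stood at 5606, 5660.0 and 6113 CPM in the WT libraries, and at 4426, 3632 and 4814 CPM in those of Ing1 KO. For Col12a1, the labelled Gadd45a KO libraries had 5355, 5809 and 5005 CPM, and the labelled DKO had 5447, 5123 and 6326 CPM. The Ing1 KO libraries lay below all others, and the labelled DKO overlapped the WT. Col12a1 fell 1.35-fold in Ing1 KO (log2 fold change -0.43, SE 0.10, adjusted p = 0.0101 by edgeR), was higher in the labelled DKO than in Ing1 KO (log2 fold change 0.39, SE 0.10, adjusted p = 0.0154 by edgeR) and had a called interaction (difference of log2 fold changes 0.50, SE 0.14, adjusted p = 0.036 by edgeR). The difference between the labelled DKO and Ing1 KO was not called without Ing1 KO replicate 2 or labelled DKO replicate 3 (log2 fold change 0.29 to 0.48 with 1 library left out), nor the interaction without WT replicate 2 or 3, labelled Gadd45a KO replicate 1 or 3, Ing1 KO replicate 2 or labelled DKO replicate 1 or 3 (difference of 0.39 to 0.59 with 1 library left out). Without the filter on low counts neither was called (adjusted p = 0.06 and 0.111 by edgeR), and with the compared groups alone the former was not (0.0647). Col14a1 stood at 82.0, 91.8 and 75.9 CPM in the WT libraries, and at 52.4, 64.9 and 52.6 CPM in those of Ing1 KO. For Col14a1, the labelled Gadd45a KO libraries had 89.8, 75.1 and 64.0 CPM, and the labelled DKO had 97.2, 83.2 and 60.1 CPM. Its libraries in Ing1 KO also lay below the WT without passing the threshold (log2 fold change -0.56, SE 0.19, adjusted p = 0.058 by edgeR). Col16a1 stood at 444, 402 and 368 CPM in the WT libraries, and at 417, 379 and 360.3 CPM in those of Ing1 KO. For Col16a1, the labelled Gadd45a KO libraries had 436, 473 and 433 CPM, and the labelled DKO had 411, 374 and 397 CPM. It overlapped between Ing1 KO and the WT and was not called in any comparison.

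Of the 8 elastic fibre genes, Ltbp1 rose and Fbln1 fell in Ing1 KO, and Ltbp1 rose while Fbn2 and Mfap5 fell in the labelled DKO against the WT. Ltbp1, which tethers latent TGF-beta to microfibrils, stood at 165, 182 and 184 CPM in the WT libraries, and at 290.0, 297 and 312 CPM in those of Ing1 KO. For Ltbp1, the labelled Gadd45a KO libraries had 207, 182 and 182 CPM, and the labelled DKO had 287, 285 and 287 CPM. Every library labelled as lacking Ing1 lay above every library of the other 2 groups. It rose 1.69-fold in Ing1 KO (log2 fold change 0.76, SE 0.06, adjusted p = 1.02e-05 by edgeR) and 1.62-fold in the labelled DKO (log2 fold change 0.69, SE 0.06, adjusted p = 2.62e-05 by edgeR), and was also higher in the labelled DKO than in the labelled Gadd45a KO (log2 fold change 0.59, SE 0.06, adjusted p = 4.24e-05 by edgeR). Against Ing1 KO the labelled DKO had a log2 fold change of -0.07, with a 95% interval of -0.19 to 0.06, and it was not called. These 3 calls were kept when any 1 library was left out.

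Fbln1, encoding fibulin-1, which binds fibronectin and elastic fibres, stood at 293, 333 and 267 CPM in the WT libraries, and at 189.6, 150.1 and 167 CPM in those of Ing1 KO. For Fbln1, the labelled Gadd45a KO libraries had 281, 297 and 279 CPM, and the labelled DKO had 256, 287 and 260.3 CPM. The Ing1 KO libraries were the lowest 3 of the 12 and did not overlap any other group, while the other 3 groups overlapped. Fbln1 fell 1.76-fold in Ing1 KO (log2 fold change -0.82, SE 0.09, adjusted p = 0.000205 by edgeR), was 1.58-fold higher in the labelled DKO than in Ing1 KO (log2 fold change 0.66, SE 0.09, adjusted p = 0.000529 by edgeR), and its interaction was the furthest above 0 of the 3 called in that direction (difference of log2 fold changes 0.72, SE 0.13, adjusted p = 0.00504 by edgeR). These calls were kept when any 1 library was left out.

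Fbn1 encodes fibrillin-1, the main microfibril protein, and stood at 1646, 1469 and 1684 CPM in the WT libraries, and at 1899, 1863 and 1682 CPM in those of Ing1 KO. For Fbn1, the labelled Gadd45a KO libraries had 1713, 1659 and 1499 CPM, and the labelled DKO had 1381, 1241 and 1489.6 CPM. Ing1 KO and the WT overlapped, and the labelled DKO libraries lay below those of Ing1 KO. It was lower in the labelled DKO than in Ing1 KO (log2 fold change -0.40, SE 0.08, adjusted p = 0.00269 by edgeR) and than in the labelled Gadd45a KO (log2 fold change -0.24, SE 0.08, adjusted p = 0.0335 by edgeR), and the interaction was called (difference of log2 fold changes -0.43, SE 0.11, adjusted p = 0.0206 by edgeR). The call against the labelled Gadd45a KO was lost without labelled Gadd45a KO replicate 1 or 2 or labelled DKO replicate 1 or 2 (log2 fold change -0.31 to -0.18 with 1 library left out), and the interaction was lost without WT replicate 2, Ing1 KO replicate 2 or labelled DKO replicate 2 (difference of -0.49 to -0.36 with 1 library left out). Fbn1 shares 2442 exon bases with Gm9913 on the opposite strand, and reads within that stretch cannot be assigned to either gene; the rest of its 11.97 kb transcript lies outside it.

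Fbn2, the fibrillin of early development, stood at 747, 729.5 and 722 CPM in the WT libraries, and at 717, 558 and 669 CPM in those of Ing1 KO. For Fbn2, the labelled Gadd45a KO libraries had 887, 720.1 and 685 CPM, and the labelled DKO had 596, 585 and 562 CPM. All labelled DKO libraries lay below all WT and labelled Gadd45a KO libraries. Fbn2 fell in the labelled DKO against the WT (log2 fold change -0.34, SE 0.10, adjusted p = 0.0269 by edgeR) and against the labelled Gadd45a KO (log2 fold change -0.40, SE 0.10, adjusted p = 0.0122 by edgeR). Gm26507, which is not among the genes counted, overlaps 129 exon bases of Fbn2 on the opposite strand. The first call was lost in each of the 6 fits that left out 1 library of these groups, at log2 fold changes of -0.36 to -0.32, and without the filter on low counts (adjusted p = 0.0631 by edgeR).

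Mfap5, a small microfibril-associated glycoprotein, stood at 66.1, 63.2 and 73.5 CPM in the WT libraries, and at 78.6, 48.9 and 27.7 CPM in those of Ing1 KO. For Mfap5, the labelled Gadd45a KO libraries had 39.7, 69.2 and 56.9 CPM, and the labelled DKO had 24.4, 17.9 and 32.4 CPM. The labelled DKO libraries lay below all WT libraries, and the labelled Gadd45a KO and Ing1 KO groups were spread widely. It fell 2.70-fold in the labelled DKO against the WT (log2 fold change -1.44, SE 0.38, adjusted p = 0.0235 by edgeR), a call lost without WT replicate 1, 2 or 3 or labelled DKO replicate 1 or 2 (log2 fold change -1.68 to -1.25 with 1 library left out). Fbln5, which helps to assemble elastin, was lower in the labelled DKO (1403 to 1513 CPM) than in the labelled Gadd45a KO (1685 to 2359 CPM, log2 fold change -0.46, SE 0.15, adjusted p = 0.0446 by edgeR). This call was lost without labelled Gadd45a KO replicate 1 or 3 or labelled DKO replicate 1, 2 or 3 (log2 fold change -0.59 to -0.33 with 1 library left out), and without the filter on low counts (adjusted p = 0.106 by edgeR). Fbln2, at 3495 to 4758 CPM over all libraries, was not called. Eln, encoding elastin itself, was not called and was spread widely: it stood at 45.8 CPM in labelled DKO replicate 3 and between 165.1 and 340.1 CPM in the other 11 libraries.

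Of the 6 adhesive and matricellular genes, Fn1 and Tnc rose while Postn and Thbs2 fell in Ing1 KO, and Tnc rose in the labelled DKO against the WT. Fn1, whose protein links cells to collagen and seeds matrix fibrils, stood at 7771, 7532 and 7814 CPM in the WT libraries, and at 9929, 11068 and 10568 CPM in those of Ing1 KO. For Fn1, the labelled Gadd45a KO libraries had 8357, 8114 and 7913 CPM, and the labelled DKO had 7601, 6652 and 8563 CPM. All Ing1 KO libraries lay above every other library. Fn1 rose 1.37-fold (log2 fold change 0.45, SE 0.08, adjusted p = 0.00142 by edgeR). It was 1.38-fold lower in the labelled DKO than in Ing1 KO (log2 fold change -0.47, SE 0.08, adjusted p = 0.00108 by edgeR), and the interaction was called (difference of log2 fold changes -0.55, SE 0.11, adjusted p = 0.00663 by edgeR). The labelled DKO overlapped the WT. These calls were kept when any 1 library was left out. Fn1 shares 292 exon bases with Apol7d on the opposite strand.

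Postn, which encodes periostin, a protein that binds integrins and promotes collagen cross-linking, stood at 10089, 11448 and 10840.5 CPM in the WT libraries, and at 8018, 7429.6 and 8419 CPM in those of Ing1 KO. For Postn, the labelled Gadd45a KO libraries had 9832, 10187 and 10213 CPM, and the labelled DKO had 9483, 9062 and 10123 CPM. The stretch with TATAAA above belongs to Postn. The Ing1 KO libraries were the lowest 3, and the labelled DKO lay between them and the WT, overlapping the WT only at replicate 3. Postn fell 1.36-fold in Ing1 KO (log2 fold change -0.44, SE 0.06, adjusted p = 0.000587 by edgeR), was higher in the labelled DKO than in Ing1 KO (log2 fold change 0.26, SE 0.06, adjusted p = 0.00888 by edgeR), and its interaction was called (difference of log2 fold changes 0.36, SE 0.09, adjusted p = 0.0172 by edgeR). The interaction was not called without WT replicate 2 (difference of 0.32 to 0.41 with 1 library left out).

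Tnc, encoding tenascin-C, which loosens the attachment of cells, stood at 3122, 2863 and 3577 CPM in the WT libraries, and at 4065, 4065 and 4477 CPM in those of Ing1 KO. For Tnc, the labelled Gadd45a KO libraries had 3049.6, 3656 and 3544 CPM, and the labelled DKO had 4604, 4208 and 4679 CPM. All 6 libraries labelled as lacking Ing1 lay above the other 6. Tnc rose 1.32-fold in Ing1 KO (log2 fold change 0.40, SE 0.09, adjusted p = 0.00578 by edgeR), 1.41-fold in the labelled DKO against the WT (log2 fold change 0.50, SE 0.09, adjusted p = 0.00128 by edgeR) and 1.32-fold in the labelled DKO against the labelled Gadd45a KO (log2 fold change 0.40, SE 0.09, adjusted p = 0.00472 by edgeR). These calls were kept when any 1 library was left out. Tnc shares 176 exon bases with 8030451A03Rik on the opposite strand.

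Thbs2, a thrombospondin that limits vessel growth and shapes collagen fibrils, stood at 2893, 3009 and 2969 CPM in the WT libraries, and at 2754, 2040.0 and 2061 CPM in those of Ing1 KO. For Thbs2, the labelled Gadd45a KO libraries had 2477, 3136 and 2739 CPM, and the labelled DKO had 2668, 2411 and 2576 CPM. Ing1 KO lay below the WT, with replicate 1 closest to it. It fell in Ing1 KO (log2 fold change -0.37, SE 0.11, adjusted p = 0.033 by edgeR), but the call was lost without WT replicate 1, 2 or 3 or Ing1 KO replicate 2 or 3 (log2 fold change -0.53 to -0.30 with 1 library left out). Without the filter on low counts its adjusted p was 0.0997 by edgeR, and with the compared groups alone 0.0565. Sparc stood at 8903, 8976 and 8576 CPM in the WT libraries, and at 8516, 7684 and 8316 CPM in those of Ing1 KO. For Sparc, the labelled Gadd45a KO libraries had 8438, 9074 and 8773 CPM, and the labelled DKO had 8372, 7782 and 7950.0 CPM. The Ing1 KO and labelled DKO libraries lay below the WT, with no call (log2 fold change -0.11, SE 0.05, adjusted p = 0.157 by edgeR and log2 fold change -0.13, SE 0.05, adjusted p = 0.0831 by edgeR). Thbs1, at 11151 to 14391 CPM, overlapped between groups and was not called in any comparison.

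Of the 7 collagen-modifying genes, Loxl1 and Loxl2 rose in Ing1 KO and in the labelled DKO, and none fell. Loxl2, a copper-dependent enzyme that cross-links collagen, stood at 2224, 2240.2 and 2249.5 CPM in the WT libraries, and at 2438, 2664 and 2948 CPM in those of Ing1 KO. For Loxl2, the labelled Gadd45a KO libraries had 2423, 2351 and 2313 CPM, and the labelled DKO had 2849.6, 2654 and 2671 CPM. All 6 libraries labelled as lacking Ing1 lay above the other 6, and those of the labelled Gadd45a KO lay above those of the WT. Loxl2 rose in Ing1 KO (log2 fold change 0.26, SE 0.06, adjusted p = 0.0079 by edgeR), in the labelled DKO (log2 fold change 0.28, SE 0.06, adjusted p = 0.00403 by edgeR) and in the labelled DKO against the labelled Gadd45a KO (log2 fold change 0.21, SE 0.06, adjusted p = 0.0234 by edgeR). The last call was lost without labelled Gadd45a KO replicate 2 or 3 or labelled DKO replicate 1 (log2 fold change 0.17 to 0.22 with 1 library left out). Loxl2 shares 301 exon bases with Gm27177 on the opposite strand, which is not among the genes counted. Loxl1, the cross-linking enzyme associated with elastin, stood at 437, 407 and 390.0 CPM in the WT libraries, and at 512, 543 and 474 CPM in those of Ing1 KO. For Loxl1, the labelled Gadd45a KO libraries had 446, 489 and 432 CPM, and the labelled DKO had 469, 482 and 467 CPM. Ing1 KO and the labelled DKO both lay above the WT, and Loxl1 rose in Ing1 KO (log2 fold change 0.31, SE 0.06, adjusted p = 0.00326 by edgeR) and in the labelled DKO (log2 fold change 0.20, SE 0.06, adjusted p = 0.0264 by edgeR). The second of these calls was lost without WT replicate 2 or 3 or labelled DKO replicate 1, 2 or 3 (log2 fold change 0.16 to 0.25 with 1 library left out).

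Lox, encoding the founding lysyl oxidase, stood at 4070.0, 4398 and 4644 CPM in the WT libraries, and at 4285, 3425 and 3166 CPM in those of Ing1 KO. For Lox, the labelled Gadd45a KO libraries had 3639, 4021 and 3663 CPM, and the labelled DKO had 3964, 3892 and 3484 CPM. It overlapped between Ing1 KO and the WT and was not called (log2 fold change -0.27, SE 0.10, adjusted p = 0.0673 by edgeR). Serpinh1, the collagen chaperone HSP47, stood at 2829.8, 2799.9 and 2571 CPM in the WT libraries, and at 2859.8, 3123 and 2954 CPM in those of Ing1 KO. For Serpinh1, the labelled Gadd45a KO libraries had 2907, 3009 and 2954 CPM, and the labelled DKO had 2868, 2696 and 2817 CPM. The Ing1 KO and labelled Gadd45a KO libraries lay above those of the WT, though not by enough to be called (log2 fold change 0.12, SE 0.05, adjusted p = 0.096 by edgeR). Plod1, a lysyl hydroxylase, stood at 343, 339.6 and 329.5 CPM in the WT libraries, and at 399, 335 and 312 CPM in those of Ing1 KO. For Plod1, the labelled Gadd45a KO libraries had 325, 385 and 359 CPM, and the labelled DKO had 444, 359 and 410.3 CPM. The labelled DKO lay above the WT for Plod1, with no call (log2 fold change 0.26, SE 0.10, adjusted p = 0.0694 by edgeR). Plod2, another lysyl hydroxylase, at 176.7 to 277.7 CPM, and P4ha2, a subunit of prolyl hydroxylase, at 305.4 to 521.6 CPM over the 12 libraries, were not called in any comparison.

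**Figure D4:**
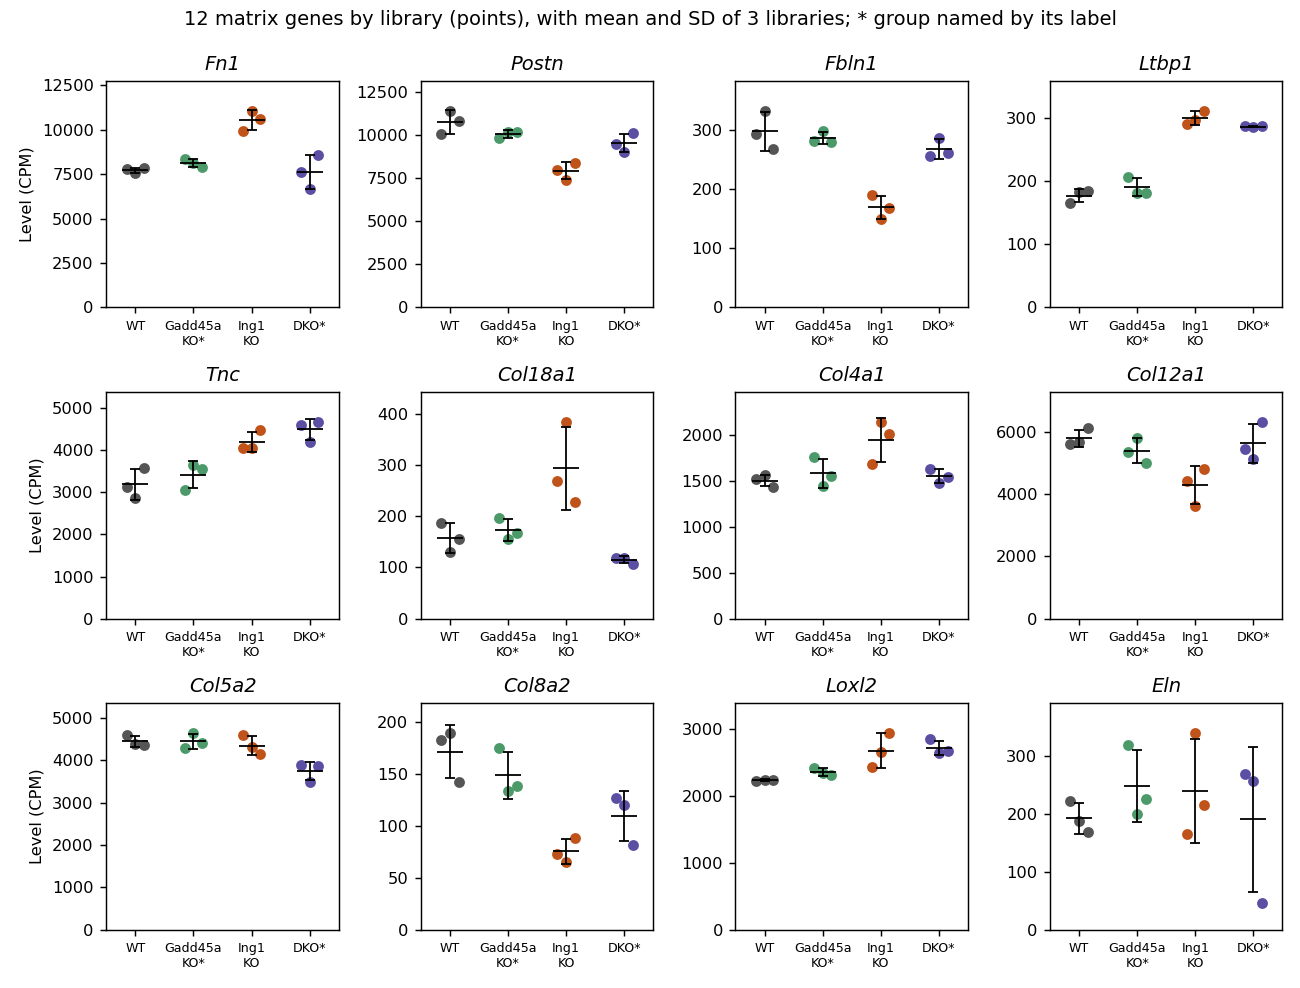
Levels in CPM of 12 of the genes by library (points), with the mean and SD of the 3 libraries of a group; an asterisk marks a group named by its label. Ltbp1, Tnc and Loxl2 are high in both Ing1 KO and the labelled DKO, Fn1, Col4a1 and Col18a1 are highest in Ing1 KO, and Postn, Fbln1 and Col12a1 are low in Ing1 KO.

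The ratio of counts of partner chains was compared as a description, for pairs chosen after their values were seen. Col1a1 over Col1a2 was 1.051, 0.9797 and 0.9965 in the WT and 1.212, 1.259 and 1.155 in Ing1 KO. For the same pair it was 1.103, 1.147 and 1.077 in the labelled Gadd45a KO and 1.096, 1.082 and 1.107 in the labelled DKO. The WT ratios lay below all others. Col5a1 over Col5a2 was 1.008, 0.976 and 0.9816 in the WT and 1.142, 1.171 and 1.143 in Ing1 KO. This ratio was 1.068, 1.119 and 1.041 in the labelled Gadd45a KO and 1.264, 1.261 and 1.24 in the labelled DKO, and these 4 groups did not overlap. Col4a1 over Col4a2 was between 1.293 and 1.415 in all libraries and overlapped between groups. A ratio of counts depends on transcript length and is read here only between libraries, and it shows unequal change, not which chain changed.

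**Figure D5:**
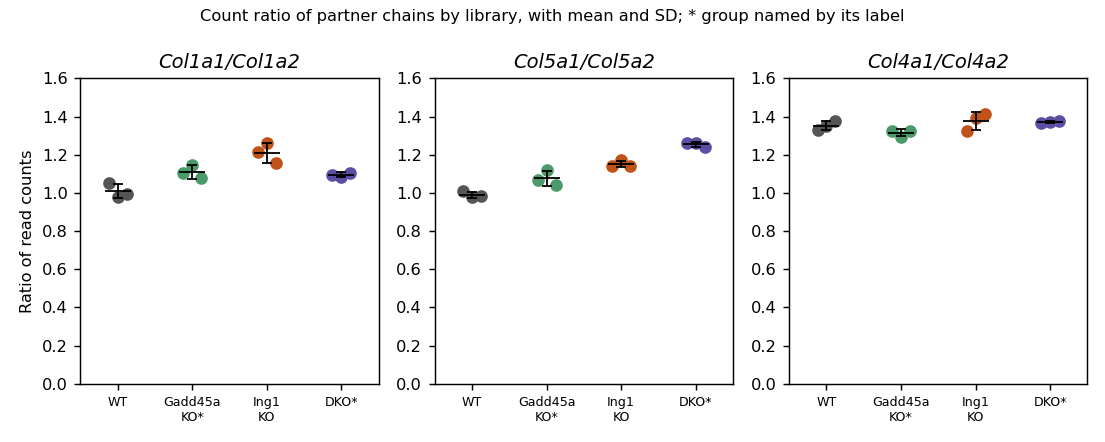
Ratio of the counts of 2 partner chains in each library (points) with the mean and SD of 3 libraries, on an axis from 0. Col5a1 over Col5a2 lies lowest in the WT and highest in the labelled DKO, and Col4a1 over Col4a2 lies at a similar height in all groups.

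A wider list of 119 other collagen, matrix and matrix receptor genes, of which 111 were tested, was read beside the 41. In Ing1 KO 25 of the 111 rose and 16 fell (36.9%, beside 23.5% of all genes). In the labelled DKO 21 rose and 22 fell against the WT (38.7%, beside 25.9%). Against Ing1 KO 10 were higher and 21 lower (27.9%, beside 24.8%, which is near the share of all genes), and against the labelled Gadd45a KO 17 were higher and 23 lower (36%, beside 26.4%). None was called in the labelled Gadd45a KO against the WT by edgeR. In the labelled DKO against the WT, 1 of 29 other glycoproteins rose and 10 fell (37.9%). For 22 matrix receptors, 8 rose and 4 fell (54.5%). Among 22 other collagens, 0 rose and 4 fell (18.2%). Of 24 other genes of collagen synthesis and processing, 7 rose and 2 fell (37.5%). Of 14 other elastic fibre genes, 5 rose and 2 fell (50%). All genes gave 15.6% higher and 10.3% lower in that comparison. The interaction was called above 0 for 9 and below 0 for 18 of the 111 (24.3%, beside 17.8% of all genes).

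In Ing1 KO, Ccn3, a matricellular protein of the CCN family, stood at 894, 982 and 887 CPM in the WT libraries, and at 259, 206 and 256 CPM in those of Ing1 KO. For Ccn3, the labelled Gadd45a KO libraries had 782, 789 and 766 CPM, and the labelled DKO had 483, 478 and 317 CPM. Ccn3 fell 3.83-fold (log2 fold change -1.94, SE 0.15, adjusted p = 9.02e-05 by edgeR) and was lowest in the 3 Ing1 KO libraries. Itga7, a laminin receptor subunit, rose 2.15-fold (log2 fold change 1.10, SE 0.11, adjusted p = 0.000132 by edgeR). Itgb3, a subunit of the vitronectin receptor, rose 1.55-fold (log2 fold change 0.64, SE 0.07, adjusted p = 0.000116 by edgeR). Lama4, a laminin chain of vessel walls, fell 1.41-fold (log2 fold change -0.50, SE 0.06, adjusted p = 0.000161 by edgeR). In the labelled DKO, Loxl3, a lysyl oxidase-like gene like Loxl1 and Loxl2 above, stood at 239.9, 236 and 261 CPM in the WT libraries, and at 385, 385 and 411 CPM in those of Ing1 KO. For Loxl3, the labelled Gadd45a KO libraries had 212, 296 and 247 CPM, and the labelled DKO had 431, 417 and 446 CPM. Loxl3 rose 1.75-fold against the WT (log2 fold change 0.81, SE 0.09, adjusted p = 0.000174 by edgeR). Every library labelled as lacking Ing1 lay above the others for Loxl3, whose exons share 535 bases with Htra2 on the opposite strand. Itga5, the alpha subunit of the main fibronectin receptor, rose 1.56-fold (log2 fold change 0.64, SE 0.09, adjusted p = 0.000406 by edgeR). The minor collagen genes Col28a1 (log2 fold change -1.07, SE 0.15, adjusted p = 0.00038 by edgeR) and Col23a1 (log2 fold change -0.96, SE 0.14, adjusted p = 0.000384 by edgeR) fell.

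In the labelled DKO against Ing1 KO, Itga3, an integrin subunit that binds laminin, was 2.25-fold lower (log2 fold change -1.17, SE 0.14, adjusted p = 0.000229 by edgeR). Lama1, a laminin chain of early basement membranes, was 3.98-fold lower (log2 fold change -1.99, SE 0.28, adjusted p = 0.000461 by edgeR). Col6a4 was 2.34-fold lower (log2 fold change -1.22, SE 0.20, adjusted p = 0.00102 by edgeR). These 3 genes stood at low levels, at most 8.60 CPM in any library. Sdc2, a heparan sulfate proteoglycan of the cell surface, was 1.37-fold lower (log2 fold change -0.45, SE 0.06, adjusted p = 0.000449 by edgeR). Against the labelled Gadd45a KO, Ltbp4, a relative of Ltbp1, was lower (log2 fold change -0.77, SE 0.11, adjusted p = 0.000583 by edgeR). So were Col23a1 (log2 fold change -1.07, SE 0.14, adjusted p = 0.000187 by edgeR) and Col28a1 (log2 fold change -0.87, SE 0.15, adjusted p = 0.00128 by edgeR), and Loxl3 was higher (log2 fold change 0.78, SE 0.09, adjusted p = 0.000225 by edgeR). The interaction was below 0 for Itga3 (difference of log2 fold changes -1.06, SE 0.21, adjusted p = 0.00663 by edgeR) and Lama1 (difference of log2 fold changes -1.90, SE 0.37, adjusted p = 0.00663 by edgeR). It was also below 0 for Itga7 (difference of log2 fold changes -0.79, SE 0.16, adjusted p = 0.00798 by edgeR), and above 0 for Mfap3 (difference of log2 fold changes 0.31, SE 0.06, adjusted p = 0.00686 by edgeR).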

How the data were processed

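RNA was measured in 12 MEF libraries, 3 for each of 4 genotypes. Polyadenylated RNA was made into libraries with the TruSeq v2 kit, which keeps no strand information, and single reads of 51 cycles were taken, per the labels' protocols. The authors deposited counts of reads per gene, and these were used as they stand. The submitters' processing notes name TopHat2 2.0.9, Bowtie2 2.1.0, HTSeq 0.5.4, DESeq and the build mm9 (NCBIM37). They do not state how strand was treated in counting, so genes that overlap on opposite strands cannot be told apart. Lines that name no gene were left out (23.89% to 24.91% of the reads listed per library). Counts of replicates differed beyond sampling noise, with a chi-square of 5.647 to 34.04 per degree of freedom, and none were identical.

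Symbols came from a separate list of gene names by identifier. Chromosomes and lengths (the transcript with the longest coding sequence) came from GENCODE M21, a newer build than the counts, so no coordinates of the counted genes are given. Promoter windows are RefSeq's, GRCm38.p6.

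Groups were compared with edgeR 4.0.16 in R 4.3.3: TMM scaling, filterByExpr, robust quasi-likelihood fits of the 12 libraries with 4 groups, two-sided tests, adjusted over all 15098 genes. The biological coefficient of variation was 8.17%. The SE of a log2 fold change is its size divided by the square root of F. The fit was tested on simulated data for the labelled DKO against the WT, with 200 of 14961 genes changed. It recovered 73% of the 1.5-fold and 83% of the 2-fold changes, and 6.59% of its calls were false. Smaller changes were not simulated. Alternatives were RLE scaling, scaling without the 41 genes, no filter, DESeq2 1.42.0, the replicate number as a block, the compared groups alone, each library left out, and a threshold of 0.01. Replicate numbers come from the labels. Deviations from group means correlated above 0.1 in all 3 same-numbered pairs of the WT and the labelled Gadd45a KO (r from 0.105 to 0.336). There, 1 of 3 WT and 2 of 3 labelled Gadd45a KO libraries correlated best with their own number. In no other 2 groups did all such pairs exceed 0.1. Between Ing1 KO and the labelled DKO (r from 0.018 to 0.076), 3 of 3 and 2 of 3 libraries correlated best with their own number.

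Up to 5 genes per class with the smallest adjusted p are given in every library, other called members with their fold change, and up to 4 called genes of the wider list per comparison. The members, lists and rules were chosen with earlier results of these data known. A design with 3 libraries against 3 cannot give an exact permutation p under 0.1, so none was run on single values.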

Additional observations from a re-analysis of the deposited data

Results flagged for a closer look

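For 9 of the 41 genes the interaction was called by edgeR's test over all genes, which is 22% beside 17.8% of all genes tested. For these, the log2 fold change of Ing1 KO against the WT differed from that of the labelled DKO against the labelled Gadd45a KO. The difference was above 0 for Fbln1 (0.72, edgeR adjusted p = 0.00504), Col12a1 (0.50, edgeR adjusted p = 0.036) and Postn (0.36, edgeR adjusted p = 0.0172), each of which fell in Ing1 KO. It was below 0 for Col18a1 (-1.49, edgeR adjusted p = 0.0101), Col5a3 (-1.21, edgeR adjusted p = 0.017), Fn1 (-0.55, edgeR adjusted p = 0.00663), Col4a2 (-0.43, edgeR adjusted p = 0.0206) and Col4a1 (-0.40, edgeR adjusted p = 0.0441), each of which rose in Ing1 KO. For Fbn1 it was -0.43 (edgeR adjusted p = 0.0206), with no call in Ing1 KO against the WT. The interaction subtracts the log2 fold change of Ing1 KO against the WT, measured in the same libraries. Its sign is therefore not independent of the direction in Ing1 KO. In the same libraries labelled DKO, macrophage markers summed to 1332 to 1659 CPM against at most 409.5 CPM elsewhere, and their part in these differences was not tested. The interaction was kept in every fit that left out 1 library for 4 of the 9 genes.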

How the results depend on the processing

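No result changed direction while called. At an adjusted p under 0.01, fewer passed. In Ing1 KO against the WT there were 1694 genes, with 6 of the 41 higher and 3 lower. In the labelled DKO against the WT there were 2265 genes, with 3 of the 41 higher and 1 lower. Against Ing1 KO there were 1865 genes, with 2 higher and 4 lower. Against the labelled Gadd45a KO there were 2185 genes, with 2 higher and 1 lower. The interaction had 737 genes, with 1 of the 41 above and 1 below 0. With DESeq2, 11 of the 41 were higher and 11 lower in Ing1 KO against the WT, among 3620 genes called. In the labelled DKO, 5 were higher and 9 lower against the WT (3886 genes called). Against the labelled Gadd45a KO 3 were higher and 8 lower (3887 genes). Against Ing1 KO 6 were higher and 8 lower (3722 genes). DESeq2 called 28 genes in the labelled Gadd45a KO against the WT. With the compared groups alone, 6 of the 41 were higher and 11 lower in the labelled DKO against the WT (3928 genes called). Against the labelled Gadd45a KO 3 were higher and 7 lower (4199 genes). In the labelled Gadd45a KO against the WT 0 genes were called. Fits of the compared groups alone could not be run for the interaction. With RLE scaling, or scaling without the 41 genes, 4 were higher and 7 lower in the labelled DKO against the WT. The cause was not tested.

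Leaving out 1 library gave 1858 to 3548 genes for Ing1 KO against the WT, with 7 to 10 higher and 4 to 11 lower members. It gave 1 to 13 genes for the labelled Gadd45a KO against the WT. For the labelled DKO against the WT it gave 3 to 4 higher and 1 to 5 lower members. Against Ing1 KO it gave 2249 to 3676 genes, with 2 to 7 higher and 4 to 7 lower members. Against the labelled Gadd45a KO it gave 2 to 4 higher and 2 to 5 lower members. For the interaction it gave 1300 to 3285 genes, with 1 to 5 above and 3 to 7 below 0. The calls kept in every such fit were 11 of 16, 4 of 8, 6 of 10, 4 of 7 and 4 of 9 in these comparisons.

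Of 18 same-numbered pairs 4 correlated above 0.1 (r from -0.177 to 0.336), as did 7 of 36 other pairs. Only between the WT and the labelled Gadd45a KO did all 3 same-numbered pairs do so. Between Ing1 KO and the labelled DKO, r was 0.018 to 0.076 in the same-numbered pairs. There, 3 of 3 Ing1 KO and 2 of 3 labelled DKO libraries correlated best with their own number. With 3 libraries a group, these correlations cannot decide whether the numbers mark pairs. A fit of the WT and the labelled Gadd45a KO alone with the replicate block called 13 genes and 0 of the 41. It was chosen after seeing the data. With the number as a replicate block, 3434, 1, 3824, 3589, 3856 and 2514 genes were called for Ing1 KO, the labelled Gadd45a KO and the labelled DKO, each against the WT, the labelled DKO against Ing1 KO and against the labelled Gadd45a KO, and the interaction. Thbs2 (Ing1 KO, edgeR adjusted p = 0.0553), Fbln5 (labelled DKO against labelled Gadd45a KO, 0.0701) and Col4a1 (interaction, 0.0757) were then not called, and Col14a1 (Ing1 KO, 0.0186, and labelled DKO against Ing1 KO, 0.0298), Col16a1 (labelled DKO against labelled Gadd45a KO, 0.0487) and Loxl1 (interaction, 0.0338) were. Groups of 3 libraries limit the precision, all 41 genes passed the filter on low counts, and depth was not varied.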
